A study of Mus musculus with 6 samples.

Results

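The genes described here are 32 mitosis and G2/M genes, taken by symbol from a deposited table of 29872 genes, and all 32 were found in it. They comprise CDK1 with its cyclins, mitotic kinases, kinetochore and checkpoint genes, and spindle and cytokinesis genes. Their expression was compared between CML (chronic myeloid leukaemia) and WT (wild type) cells of mouse bone marrow, with 3 libraries in each group. The cells of both groups were untreated, on the C57BL/6 background, grown ex vivo, and taken from a stem cell gate (lineage-negative, Sca1+, cKit+, CD150+). The labels used here name neither the leukaemia model, nor the animals' age, nor how many animals stand behind a library. The p-values therefore cover only library-to-library spread, part or all of which may be technical.

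A cell enters mitosis when CDK1, bound to cyclin A and then to cyclin B, phosphorylates its targets. Chromosomes then attach to the spindle through kinetochores, and the spindle checkpoint holds back the anaphase-promoting complex until every kinetochore is attached. The complex then marks cyclin B and securin for destruction, which ends mitosis. Transcripts of these genes rise in G2 and mitosis in all dividing cells, so in a stem cell gate their level is widely used as a measure of how many cells are cycling. In bulk RNA, fewer cells in mitosis and less of each transcript per cell cannot be told apart.

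Many G2/M promoters carry a CHR element (TTTGAA in its commonest form), bound by the MuvB complexes, and CCAAT boxes, bound by NF-Y. RefSeq promoters (GRCm38.p6, from 250 bases before to 50 bases after the start) were matched for 27 of the 32 genes and searched on both strands. TTTGAA or its reverse complement TTCAAA was found in 20 of the 27, and CCAAT or ATTGG in 21 of the 27. Among 10233 tested genes with such a promoter the shares were 15.2% for TTTGAA and 43.47% for CCAAT. The TTTGAA motif was found for 3 of the 5 genes that were lower in CML (below) and for 17 of the 22 others, and CCAAT for 4 of the 5 and 17 of the 22. The promoters of 3 genes that were lower in CML, Cdk1 (chr10:69352863-69353162, minus strand), Ccnb1 (chr13:100786437-100786736, minus strand) and Ube2c (chr2:164769679-164769978, plus strand), are shown with that of Ccnb2 (chr9:70421505-70421804, minus strand), the second B-type cyclin, which did not pass the test. Each runs 5′ to 3′ along the gene, and capitals mark the TTTGAA motif and the CCAAT box on either strand.
Cdk1: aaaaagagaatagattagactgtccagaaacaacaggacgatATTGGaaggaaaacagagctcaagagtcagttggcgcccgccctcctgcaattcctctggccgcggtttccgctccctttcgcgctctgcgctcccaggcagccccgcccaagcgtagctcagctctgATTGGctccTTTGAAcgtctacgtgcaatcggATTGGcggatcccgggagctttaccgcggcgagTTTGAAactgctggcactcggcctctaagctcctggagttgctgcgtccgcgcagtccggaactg
Ccnb1: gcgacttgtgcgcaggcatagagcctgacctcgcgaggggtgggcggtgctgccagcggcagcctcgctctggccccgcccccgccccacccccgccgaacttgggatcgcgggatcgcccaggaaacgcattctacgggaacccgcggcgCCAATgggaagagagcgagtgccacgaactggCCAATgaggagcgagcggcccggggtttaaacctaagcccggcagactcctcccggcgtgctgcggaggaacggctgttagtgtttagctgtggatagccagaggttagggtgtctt
Ube2c: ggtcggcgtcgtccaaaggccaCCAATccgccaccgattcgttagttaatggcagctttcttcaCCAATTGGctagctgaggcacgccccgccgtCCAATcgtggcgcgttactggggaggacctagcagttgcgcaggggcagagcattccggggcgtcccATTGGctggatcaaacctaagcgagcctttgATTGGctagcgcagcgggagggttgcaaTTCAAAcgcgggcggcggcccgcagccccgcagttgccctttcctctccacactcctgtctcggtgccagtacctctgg
Ccnb2: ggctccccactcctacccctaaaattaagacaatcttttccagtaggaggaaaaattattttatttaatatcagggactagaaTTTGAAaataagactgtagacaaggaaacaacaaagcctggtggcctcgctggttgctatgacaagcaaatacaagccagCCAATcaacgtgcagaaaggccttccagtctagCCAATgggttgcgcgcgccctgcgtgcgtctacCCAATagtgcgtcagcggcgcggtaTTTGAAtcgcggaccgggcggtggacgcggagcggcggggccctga
In these windows Cdk1, Ube2c and Ccnb2 held both motifs, while Ccnb1 held 2 CCAAT boxes and no TTTGAA. Only the commonest form of the CHR element was searched for. Among the genes lower in CML whose promoters are not shown, Ttk held both motifs and Mad2l1 held neither. In Ube2c, 1 CCAAT box overlaps another match to the same box on the opposite strand.

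Of the 32 genes, 5 fell in CML (Cdk1, Ccnb1, Ttk, Mad2l1 and Ube2c) and 0 rose. The test was edgeR's quasi-likelihood test with Benjamini-Hochberg adjustment over all 16221 tested genes and a threshold of 0.05. Among all tested genes 7.2% were called lower and 10.2% higher in CML, against 15.6% and 0 of the 32 genes. At an unadjusted p under 0.05 there were 10 of the 32 genes, all lower in CML, against 15.1% of all tested genes lower and 16.6% higher at that threshold. The median log2 fold change was -0.21, beside -0.0043 for all tested genes, and 29 of the 32 fold changes were below 0. Scaled by library totals alone the median was -0.11, beside 0.094 for all tested genes, 25 of 32 were below 0, and Aurkb, Ccnb2, Cdca8 and Nusap1 turned positive. All CML libraries lay below all WT libraries for 11 of the 32 genes (34.4%), against 16.5% of all tested genes, and all lay above for 0 of 32, against 18.5%.

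**Figure D1:**
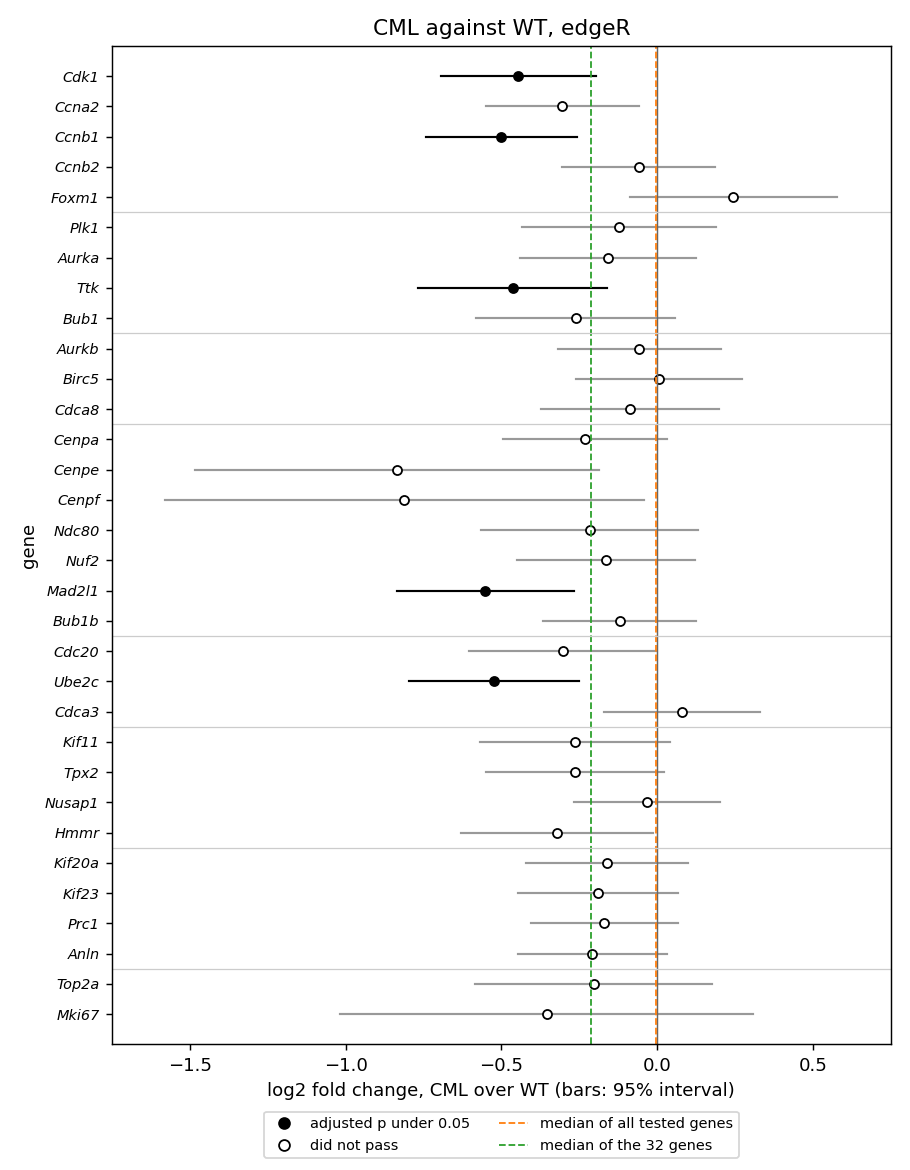
Log2 fold change of CML over WT for each of the 32 genes (horizontal axis; edgeR, 3 libraries per group), with 95% intervals as bars; filled points passed an adjusted p of 0.05, dashed lines mark the medians of the 32 genes and of all tested genes, and grey lines separate functional groups. The 5 filled points lie between -0.55 and -0.45, and most open points lie left of 0.

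The count of 5 rested in part on CML replicate 2. Without that library only Mad2l1 was called among these genes (adjusted p = 0.0464), while Ube2c (0.0517), Ccnb1 (0.0616), Ttk (0.0954) and Cdk1 (0.106) missed the threshold. The log2 fold changes of Ube2c, Ccnb1, Ttk and Cdk1 were then -0.50, -0.44, -0.45 and -0.37. Over all libraries they were -0.52, -0.50, -0.46 and -0.45. Calls over all genes numbered 1861 without CML replicate 2, against 2820 with every library. The share called lower was then 3.1% of the 32 genes, below the 4.1% of all tested genes. Without WT replicate 3 the count was 11 (34.4%, against 12.5% of all tested genes), with Ccna2, Bub1, Cenpe, Cenpf, Kif11 and Mki67 added. It was 3 (9.4%) without WT replicate 2, against 2.7% of all tested genes, and 3 with scaling by library totals, against 4.5%. The number of genes called higher was 0 in every alternative run.

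CDK1, its cyclins and FOXM1 made up the first group, in which 2 of 5 genes fell and 3 did not pass. Cdk1, the kinase that drives entry into mitosis (chromosome 10, 69335146 to 69352938, GRCm38), stood at 136, 119 and 142 CPM (TMM-scaled read counts relative to library size) in CML replicates 1, 2 and 3, against 173, 174 and 194 CPM in WT. Every CML library lay below every WT library, with a log2 fold change of -0.45 (SE 0.12, 95% interval -0.70 to -0.20, adjusted p = 0.0183). Cdk1 also missed the threshold without WT replicate 2 (0.0579) and with library totals (0.0591).

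Ccnb1, which encodes cyclin B1, the main mitotic partner of CDK1 (chromosome 13, 100778650 to 100786570), was at 308, 261 and 289 CPM in CML and 414, 410 and 391 CPM in WT. The groups did not overlap, and the log2 fold change was -0.50 (SE 0.11, 95% interval -0.74 to -0.26, adjusted p = 0.00839). Ccnb1 has 4 processed pseudogenes that align to its transcripts at 94.4% to 99.2% identity, and together they were assigned counts equal to 31.0% of its own, so the division of reads between them is uncertain. With their counts added to Ccnb1 the log2 fold change was -0.47 (SE 0.11, adjusted p = 0.0130), an alternative chosen after the data were seen.

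Ccnb2, which encodes cyclin B2, stood at 106, 95.9 and 111 CPM in CML and 104, 103 and 119 CPM in WT. The groups overlapped, and the log2 fold change of -0.06 had a 95% interval from -0.31 to 0.19 (adjusted p = 0.767). The ratio of Ccnb1 to Ccnb2, which is free of library scaling, was 2.90, 2.72 and 2.61 in CML and 3.98, 3.97 and 3.28 in WT. All CML ratios lay below all WT ratios, and with the pseudogene counts added the mean ratio was 3.63 ± 0.13 in CML and 4.86 ± 0.45 in WT (SD, n = 3 each). The ratio of Cdk1 to Ccnb2 was 1.28, 1.24 and 1.28 in CML and 1.66, 1.68 and 1.63 in WT, again without overlap. These ratios were chosen after the values of the genes were seen. An exact two-sided test gave p = 0.1 for each of them, with and without the pseudogene counts. That is the smallest p this test can give with so few libraries, so it cannot decide whether the ratios differ.

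Ccna2, the cyclin A gene, was at 361, 327 and 380 CPM in CML and 462, 438 and 418 CPM in WT. Its groups did not overlap, but the log2 fold change of -0.30 missed the threshold (SE 0.11, adjusted p = 0.0826). With the DESeq2 Wald test Ccna2 passed (adjusted p = 0.0457). Foxm1, the transcription factor that activates G2/M genes, was at 18.6, 24.1 and 27.0 CPM in CML and averaged 19.6 ± 0.39 CPM in WT (SD, n = 3). Its log2 fold change was 0.25, the highest of the 32 genes, with a 95% interval from -0.09 to 0.58 (adjusted p = 0.303). Foxm1 was uneven in CML, with replicate 1 below each WT library.

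**Figure D2:**
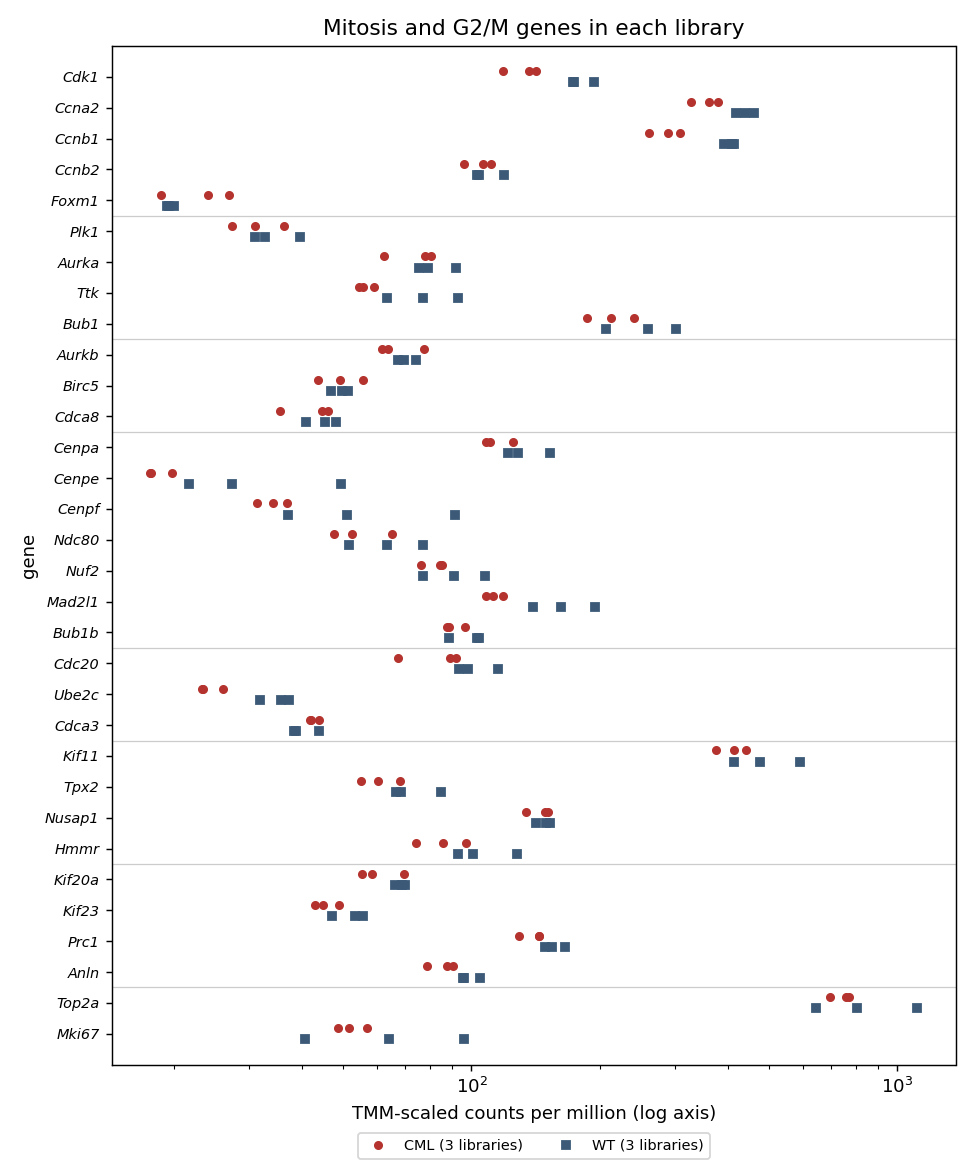
CPM (TMM-scaled, log axis) of the 32 genes in each library, with CML as circles above and WT as squares below each gene's line; grey lines separate functional groups. Ccnb1, Mad2l1 and Ube2c show a gap between the groups, while Cenpe, Cenpf, Top2a and Mki67 are widely spread among the WT libraries.

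Of the 4 mitotic kinases 1 fell. Ttk, whose product (MPS1) starts checkpoint signalling at unattached kinetochores, stood at 59.2, 55.7 and 54.5 CPM in CML and 93.2, 77.1 and 63.3 CPM in WT. The CML libraries were close together and lay below all 3 WT libraries, which spread over a wider range. The log2 fold change was -0.46 (SE 0.14, adjusted p = 0.0373), and this was the least stable of the 5 calls. Beside the loss without CML replicate 2, Ttk missed the threshold on leaving out CML replicate 3 (0.124), the first WT library (0.154) or the second (0.108), with library totals (0.0780) and with limma-voom (0.0566). Its log2 fold change was -0.45 without CML replicate 2, -0.44 without CML replicate 3, -0.48 without WT replicate 2 and -0.45 with limma-voom, close to the -0.46 over all libraries, but -0.32 without WT replicate 1 and -0.36 with library totals. Plk1, a kinase of mitotic entry and centrosome maturation, Aurka, the spindle pole kinase, and Bub1, a checkpoint kinase, did not pass, with log2 fold changes of -0.12, -0.16 and -0.26. Plk1 also has a pseudogene copy, assigned counts equal to 5.68% of its own, and was at -0.13 with those added.

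None of the 3 genes of the chromosomal passenger complex passed, and their groups overlapped. This complex corrects faulty attachments and directs cytokinesis. Aurkb, its kinase, had a mean of 67.5 ± 8.41 CPM over the CML libraries, against 70.3 ± 3.43 CPM over the WT libraries (SD, n = 3 each). Birc5 (survivin) averaged 49.4 ± 6.00 and Cdca8 (borealin) 42.1 ± 5.74 CPM in CML, against 49.2 ± 2.32 and 44.7 ± 3.61 CPM in WT. Their log2 fold changes were -0.06, 0.01 and -0.09, and the 95% intervals together ran from -0.37 to 0.27.

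In the centromere, kinetochore and checkpoint group 1 of 7 genes fell. Mad2l1 encodes MAD2, the checkpoint protein that binds and inhibits CDC20 (chromosome 6, 66535390 to 66547220). It was at 119, 108 and 112 CPM in CML and 195, 162 and 139 CPM in WT. The groups did not overlap, and the log2 fold change was -0.55 (SE 0.13, 95% interval -0.84 to -0.27, adjusted p = 0.0115). Mad2l1 was called in each of the 15 alternatives, with adjusted p-values from 0.00127 to 0.0484.

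The largest log2 fold changes of the 32 genes, in Cenpe and Cenpf, did not pass. Cenpe, a kinesin gene of the kinetochore, stood at 17.6, 17.7 and 19.8 CPM in CML and 49.4, 27.4 and 21.7 CPM in WT (-0.84 on the log2 scale, SE 0.28, adjusted p = 0.0793). Cenpf, which encodes a large kinetochore protein, stood at 34.3, 31.4 and 36.8 CPM in CML and 91.7, 51.0 and 37.2 CPM in WT (-0.81 on the log2 scale, SE 0.32, adjusted p = 0.138). In both genes the CML libraries lay together, just below the lowest WT library, and WT replicate 1 stood far above the other WT libraries. Without WT replicate 1 the values were -0.42 for Cenpe and -0.37 for Cenpf. Cenpe passed with DESeq2 (adjusted p = 0.00466). The other members did not pass: Cenpa, the centromeric histone variant (-0.23), Ndc80 (-0.22) and Nuf2 (-0.16), which form the microtubule-binding NDC80 complex, and Bub1b, which encodes the checkpoint protein BUBR1 (-0.12).

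Among the genes of the anaphase-promoting complex pathway, 1 of 3 fell. Ube2c, the ubiquitin-conjugating enzyme of the complex (chromosome 2, 164769898 to 164778822), was at 23.4, 23.4 and 26.2 CPM in CML and 35.7, 31.8 and 37.4 CPM in WT. The groups did not overlap (log2 fold change -0.52, SE 0.13, 95% interval -0.80 to -0.25, adjusted p = 0.0121). Its exons overlap those of Tnnc2 in GENCODE M21, as do those of Ccna2 with Exosc9, Cdc20 with Elovl1, Nusap1 with Oip5, Prc1 with Rccd1, Kif20a with Cdc23 and Foxm1 with Tex52, while Plk1, Cdca8 and Top2a each overlap a gene named only by a code. The strand setting of the counting is unknown here, so these values are uncertain to that extent. Cdc20, the activator of the complex and the target of MAD2, was at 91.9, 67.3 and 89.1 CPM in CML and 93.4, 97.9 and 115 CPM in WT. The groups did not overlap, though the highest CML and lowest WT libraries were nearly level, and the log2 fold change of -0.30 did not pass (SE 0.14, adjusted p = 0.152). Cdca3, a cell division cycle associated gene, was at 42.0, 41.7 and 43.9 CPM in CML and 38.7, 38.3 and 43.8 CPM in WT (log2 fold change 0.08, adjusted p = 0.679).

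None of the 4 spindle genes and none of the 4 midzone and cytokinesis genes passed. Kif11, the motor that pushes spindle poles apart, was at 415, 375 and 442 CPM in CML and 589, 476 and 413 CPM in WT (-0.26). Tpx2, the activator of Aurora A, and Hmmr, a spindle-associated protein gene, had log2 fold changes of -0.26 and -0.32, and Nusap1, a microtubule-bundling protein gene, -0.03. Prc1, which cross-links midzone microtubules, stood at 144, 129 and 144 CPM in CML and 166, 154 and 149 CPM in WT (-0.17, adjusted p = 0.320). Anln, the contractile ring protein anillin, stood at 87.4, 78.7 and 90.5 CPM in CML and 105, 96.0 and 95.6 CPM in WT (-0.21, adjusted p = 0.219). Prc1 and Anln thus did not overlap between the groups, although neither passed. The midzone kinesin genes Kif20a and Kif23 had log2 fold changes of -0.16 and -0.19.

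Top2a, the topoisomerase that disentangles chromosomes, and Mki67, which encodes the proliferation marker Ki-67, did not pass. Top2a stood at 756, 696 and 771 CPM in CML and 1113, 803 and 644 CPM in WT, and its groups overlapped (log2 fold change -0.20, SE 0.17, adjusted p = 0.466). Without WT replicate 1 its value was 0.029. Mki67 was at 51.6, 57.0 and 48.6 CPM in CML and 96.1, 64.1 and 40.6 CPM in WT, with the highest and the lowest of the 6 libraries both WT (log2 fold change -0.35, SE 0.28, adjusted p = 0.447). Without WT replicate 1 it was -0.0052. For 24 of the 27 genes that did not pass, the 95% interval of the fold lay between 0.5 and 2. The exceptions were Cenpe, Cenpf and Mki67.

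Per kilobase of annotated exon, the levels of the 32 genes spanned a wide range. Ccna2 was highest, at 87.2 CPM per kb in CML and 108 in WT, and the next in CML were Top2a (82.2 in CML and 94.7 in WT), Ccnb2 (68.2 and 71.1) and Ccnb1 (67.9 and 96.0). By its own counts Ccnb1 was thus level with Ccnb2 per kilobase in CML, while in WT its mean was second, close to that of Top2a. These levels leave out the counts assigned to the Ccnb1 pseudogenes, equal to 31.0% of its own. The place of Ccnb1 in this order may therefore be too low in both groups. The lowest were Cenpe (2.13 in CML and 3.81 in WT), Cenpf (2.21 and 3.89) and Foxm1 (4.04 and 3.40). Exonic length was the union over all GENCODE M21 isoforms, so genes with long rare isoforms are understated.

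Longer genes among the 32 tended to be higher in WT replicate 1 than in WT replicate 3. Across the 32 genes, the log2 ratio of WT replicate 1 to WT replicate 3 had a Spearman correlation of 0.76 with exonic length, beside 0.29 over 10981 tested genes with at least 5 CPM. Both correlations compare the same pair of libraries and are given as descriptions. The ratio was 1.30 for Cenpf, 1.24 for Mki67, 1.19 for Cenpe and 0.79 for Top2a, and among the called genes 0.56 for Ttk, 0.49 for Mad2l1, 0.08 for Ccnb1, -0.07 for Ube2c and -0.17 for Cdk1. With the trend on exonic length removed from every library, an alternative chosen after the data were seen, the same 5 genes were called and the median log2 fold change was -0.19. That trend was fitted over all tested genes with at least 5 CPM, where the relation was weaker than among the 32. The run therefore cannot show whether the calls would hold with the steeper relation of the 32 genes removed. Exonic length and the log2 fold change of CML over WT had a Spearman correlation of -0.40 over the 32 genes, beside 0.045 over the 10981 tested genes.

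**Figure D3:**
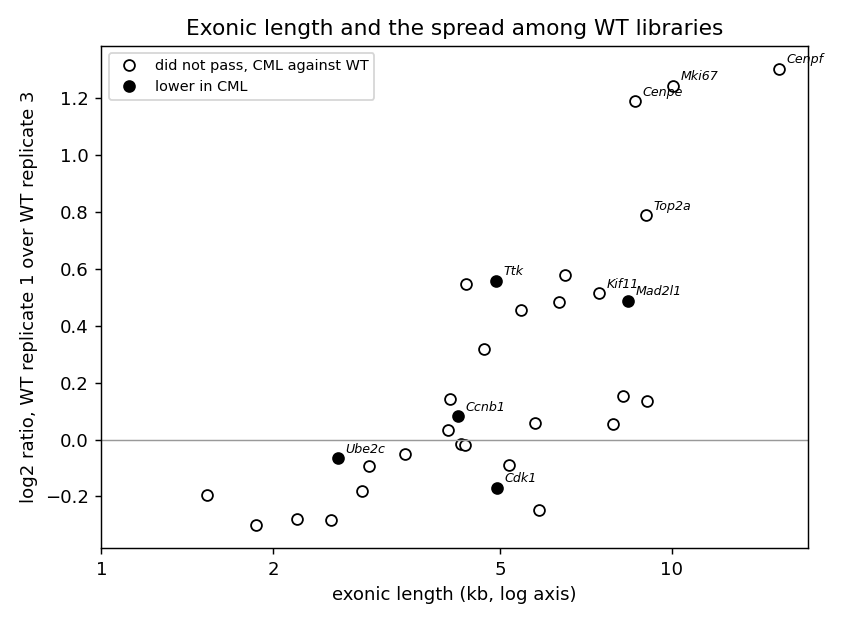
Exonic length of the 32 genes (kb, log axis) against the log2 ratio of WT replicate 1 to WT replicate 3; filled points are the 5 genes lower in CML. Cenpf, Mki67, Cenpe and Top2a have the highest ratios, while Ccnb1, Ube2c and Cdk1 lie between -0.17 and 0.08.

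Summed over the 32 genes, the level was 4036, 3607 and 4119 CPM in CML replicates 1, 2 and 3, against 5319, 4536 and 4273 CPM in WT. Every CML library was below every WT library, but WT replicate 3 exceeded CML replicate 3 by less than it fell short of the other WT libraries. Top2a alone made up 18.7%, 19.3% and 18.7% of the summed counts in CML and 20.9%, 17.7% and 15.1% in WT. Its own WT levels, at 1113, 803 and 644 CPM, ran in the same order as the WT sums. CML replicate 2 held the lowest value of the 6 libraries for 25 of the 32 genes, and WT replicate 1 the highest for 18. Relative to the WT mean of each gene, the median log2 ratio was -0.18, -0.33 and -0.12 in CML and 0.07, -0.06 and -0.04 in WT. By this median WT replicate 3 lay above WT replicate 2, unlike in the sum.

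**Figure D4:**
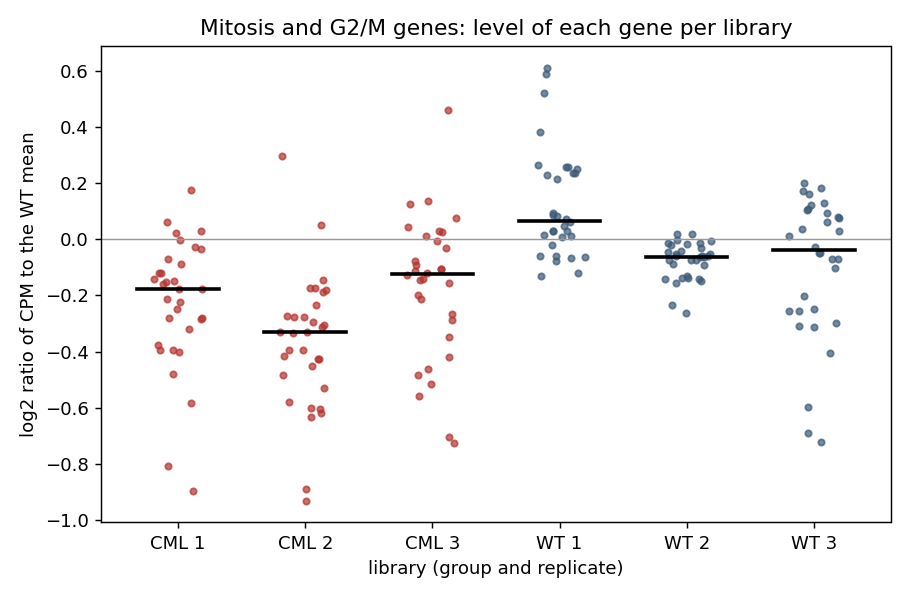
Log2 ratio of each of the 32 genes to its WT mean (points) in each library, with the median as a black bar. The CML medians are -0.18, -0.33 and -0.12, and the WT medians 0.07, -0.06 and -0.04.

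Libraries differed in other measures beside these genes. The summed level of a list of 14 mast cell and basophil genes was 2449, 8215 and 5177 CPM in CML and 680, 456 and 545 CPM in WT, and 8 of the 14 rose and 0 fell. CML replicate 2, lowest in the mitotic genes, was thus highest in this list, with Cpa3 at 4601 CPM, and Mcpt1 was at 0 in all WT libraries. Of 11 stem cell genes 3 fell (Hlf, Slamf1 and Mycn) and 0 rose, with Kit at 203, 402 and 321 CPM in CML and 285, 302 and 290 CPM in WT. Ly6a, the Sca1 gene of the gate, was at 81.7, 172 and 65.3 CPM in CML and 40.0, 52.4 and 64.2 CPM in WT. Its CML libraries all lay above its WT libraries, but it did not pass (log2 fold change 1.03, adjusted p = 0.173). Monocyte genes rose in 5 of 9 tested, dendritic genes in 4 of 5, erythroid genes in 3 of 8 (2 fell), megakaryocyte genes in 1 of 7 (2 fell), the lymphoid list in 1 of 2 and neutrophil genes in 0 of 9. Among all tested genes 10.2% rose and 7.2% fell. The part of these cell type genes in the mitotic values was not tested. Library totals were 13323469 to 15433481 counts in CML and 15930585 to 17926847 in WT, and each of the 32 genes had at least 243 counts in every library.

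The other mitotic genes, in 5 lists of 124 genes, gave 13 lower and 2 higher in CML, so 10.5% were lower, against 7.2% of all tested genes. The count depended on the libraries kept. It was 12 without CML replicate 1 (9.7%, against 7.4% of all tested genes). It was 4 without CML replicate 2, CML replicate 3 or WT replicate 1 (3.2%, against 4.1%, 3.4% and 4.1% of all tested genes). Without WT replicate 2 there were 3 (2.4%, against 2.7%), and without WT replicate 3 there were 36 (29.0%, against 12.5%). Of 35 further kinetochore and centromere genes 6 fell (17.1%, against 7.2% of all tested genes) and 1 rose (2.9%, against 10.2%). Those that fell included Cenpw (-0.67, adjusted p = 0.00312) and Cenpp (-0.76, adjusted p = 0.00430), subunits of the inner kinetochore, Oip5, which helps to load CENP-A (-0.51), and Sgo1, the guardian of centromeric cohesion (-0.49). Mad1l1, which encodes MAD1, the kinetochore anchor of MAD2, rose, at 24.0, 15.0 and 23.1 CPM in CML against 7.47, 6.69 and 9.03 CPM in WT (1.42 on the log2 scale, SE 0.20, adjusted p = 4.34e-04). MAD1 and MAD2 transcripts were thus called in opposite directions.

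Of 31 further spindle, centrosome and cytokinesis genes 4 fell (12.9%, against 7.2% of all tested genes) and 0 rose (against 10.2%). Those that fell were Plk4, the kinase of centriole duplication (-0.44), Ect2, the RhoA activator of cytokinesis (-0.47), and the kinesin genes Kif20b (-0.85) and Kif18a (-0.48). Kif20b was even in CML, at 62.5, 54.9 and 59.5 CPM, and widely spread in WT, at 144, 108 and 67.9 CPM. Of 21 mitotic entry and MuvB regulators, Cks2, a small CDK-binding protein gene (-0.68, adjusted p = 0.00424), and Lin54, the DNA-binding MuvB subunit (-0.38), fell, and the kinase gene Melk rose (0.42). In that list 9.5% were lower and 4.8% higher. Among 18 condensin and cohesin genes Ncapg fell (-0.47, adjusted p = 0.0464), so 5.6% were lower. None of 19 anaphase-promoting complex and separase genes passed.

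DNA replication and G1/S genes, which act before the 32 genes in the cycle, had a median log2 fold change of 0.06. Of 35 genes 3 rose (8.6%, against 10.2% of all tested genes) and 1 fell (2.9%, against 7.2%), so neither share was above that of all tested genes. Tyms, the thymidylate synthase gene, was at 139, 131 and 137 CPM in CML and 95.6, 95.5 and 95.5 CPM in WT (0.50, adjusted p = 0.00499), and Ccne1, the cyclin E1 gene, and Lig1, the replicative DNA ligase gene, rose by 0.82 and 0.43. Rfc4, a clamp loader subunit gene, fell by 0.47. The ratio of the summed 32 genes to the summed G1/S genes was 0.908, 0.844 and 0.903 in CML and 1.24, 1.08 and 0.993 in WT. The groups did not overlap in this ratio, and it was not tested because the genes were chosen with results known.

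Of 12 tested G1 cyclins, CDK inhibitors and partners 3 rose (25%, against 10.2% of all tested genes) and 1 fell (8.3%, against 7.2%). Cdkn1a, which encodes the CDK inhibitor p21, was at 62.3, 96.2 and 78.4 CPM in CML and 36.3, 41.2 and 45.0 CPM in WT (0.95 on the log2 scale, SE 0.16, adjusted p = 0.00133). Its highest level was in CML replicate 2, the library with the lowest summed mitotic genes. CML replicate 3, however, was above CML replicate 1 both in Cdkn1a and in the summed mitotic genes. A relation between them was not tested. Cdkn2d, another CDK inhibitor gene, and Ccnd3 rose by 0.57 and 0.37. Ccnd2, a D-type cyclin gene, was at 213, 277 and 248 CPM in CML and 376, 401 and 402 CPM in WT (-0.68, adjusted p = 0.00229).

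**Figure D5:**
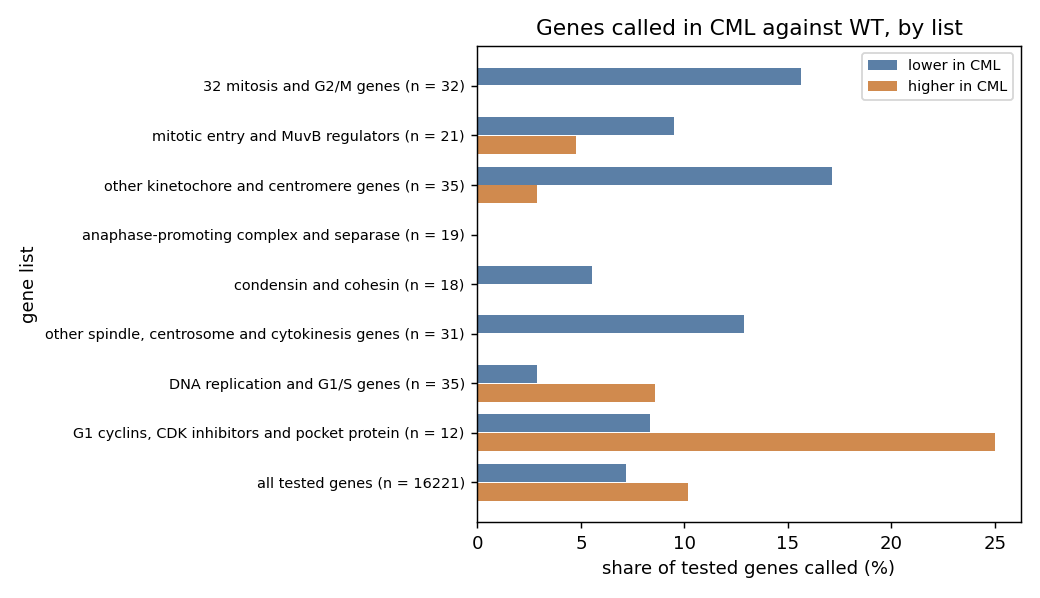
Share of tested genes called lower (blue) and higher (orange) in CML for the 32 genes, 7 lists of cell cycle genes and all tested genes (adjusted p under 0.05, edgeR). The 32 genes had 15.6% lower and 0 higher, beside 7.2% and 10.2% of all 16221 tested genes.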

How the data were processed

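RNA was measured by bulk sequencing of transposase-based (Nextera XT) libraries, per the labels' protocols. The authors deposited estimated counts for each gene and library, with unequal totals. Non-whole values (tolerance 0.001) made up 31.1% to 33.4% of each column and occurred in 23 of the 32 genes. The submitters' processing notes name STAR 2.7.3a, Partek 8.0 and mm10. The sources used here do not state annotation, strand setting or how shared reads were divided.

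Groups and replicate numbers came from the sample titles. The estimated counts were rounded and filtered with filterByExpr of edgeR 4.0.16 (minimum count 10), which left 16221 genes and all 32 members. The quasi-likelihood test used TMM scaling, robust dispersions and group as the only term (R 4.3.3, two-sided, Benjamini-Hochberg adjusted p under 0.05). SE is the fold change over the root of F. CPM means were given with SD over 3 libraries. Coordinates and exonic lengths came from GENCODE M21 (GRCm38). Near copies were found with minimap2 2.31 (at least 90% identity over 200 bases). Alternatives used DESeq2 1.42.0 and limma 3.58.1. The pipeline was tested on simulated data. All 32 members were named, with up to 4 called genes per direction from each cell cycle list. Members, lists and alternatives were chosen with earlier results of these data known. Intervals and tests cover these libraries only, and reads carried no molecular identifiers.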

Additional observations from a re-analysis of the deposited data

How the results depend on the processing

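All 15 alternatives gave 0 of the 32 genes higher in CML, and the median log2 fold change stayed below 0 in each. Scaled by library totals alone, 3 of the 32 genes were lower, the median was -0.11, 9 genes of the other cell cycle lists and 732 of all genes were lower, and 73.8% of all calls were higher in CML, against 58.6% with TMM. With 1 library left out at a time, the genes called ran from 1466 to 4122 (higher 1011 to 2021, lower 455 to 2101). The 32 genes gave 1 to 11 lower, with medians from -0.26 to -0.15, and the other cell cycle lists gave 4 to 18 higher and 4 to 39 lower. The lowest counts over all genes came without WT replicate 2 and the highest total without WT replicate 3. For the 32 genes the lowest and highest counts came without CML replicate 2 and WT replicate 3. Their medians of -0.15 and -0.26 came without WT replicate 1 and WT replicate 3. The cause was not tested. Same-numbered libraries did not deviate together (correlations -0.061, -0.046 and 0.028), and CML replicate 1 correlated best with WT replicate 2 (0.104). With replicate as a block 2807 genes and the same 5 of the 32 were called. DESeq2 called 7 of the 32 and limma-voom 4. Birc5, which did not pass, took a negative sign with DESeq2's size factors, with no low-count filter and without CML replicate 1 or WT replicate 2. Aurkb, Cdca8 and Nusap1 turned positive without CML replicate 2, Top2a without WT replicate 1 and Ccnb2 without WT replicate 3.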
